A study of Drosophila melanogaster with 4 samples.

Results

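Unplaced U is the artificial sequence on which release 5 of the *Drosophila melanogaster* genome strings together scaffolds that could not be assigned to a chromosome. The regions of U enriched for Su(var)3-7 were taken as every enriched row on U, and none on Uextra, in the authors' combined list of both replicates. They number 938 of 10603 enriched regions in all. The list of replicate 1 holds 591 U regions of 6098, and that of replicate 2 holds 452 of 6295. Uextra, a second set of unplaced sequence, holds 0 regions in each of the 3 lists.

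Su(var)3-7 is a zinc-finger protein found at pericentric heterochromatin, where it works with the heterochromatin protein HP1 and the histone methyltransferase Su(var)3-9. Flies with less of it show weaker silencing of genes placed next to heterochromatin. Heterochromatin of the fly is built largely of satellite DNA and transposon copies, which resist assembly, so scaffolds without a chromosome come mostly from it. Reads from such copies can match several places, and a region called on U can share its sequence with regions elsewhere. The repeat content of U was not checked here, since no release 5 sequence was used.

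The groups are 2 chromatin immunoprecipitation (ChIP-seq) libraries, made with the antibody Q3448 against Su(var)3-7, and 2 libraries of input DNA, each the control for 1 ChIP library. All 4 came from whole wild-type embryos of Oregon-R, listed as the strain Oregon-R-modENCODE, aged 14 to 16 h, bred in population cages and fixed with 1.8% formaldehyde. Each library therefore mixes the tissues of many embryos, and 1 antibody was used throughout. The labels do not say whether the replicates were separate collections. No values of the input libraries alone are used here, and depth is unknown, because the lists hold no read counts. Differences between U and other sequence are given for each replicate side by side and were not tested, since a two-sided exact permutation test over 2 pairs cannot go below 0.5.

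U was covered by Su(var)3-7 regions over 16.4% ± 4.42 of its 10.0 Mb (SD, n = 2), with 19.5% in replicate 1 and 13.2% in replicate 2. The 6 assembled pericentric sequences whose names end in Het were covered over 49.2% ± 8.81, chromosome 4 over 28.8% ± 2.84 and the 5 euchromatic arms over 11.7% ± 0.198. U thus lay below the Het sequences and chromosome 4 and above the arms in both replicates. The margin over the arms was 1.69-fold in replicate 1 and 1.12-fold in replicate 2. Against the Het sequences, U had 0.351 and 0.308 of their coverage in replicates 1 and 2. U regions were also narrower than those of the Het sequences, with median widths of 2282 and 2184 bp against 3558 and 2883 bp, and close to the 2030 and 2044 bp of the arms. YHet was an exception and lay below U in both measures. Its coverage was 9.6% and 5.33% and its median width 2203 and 1926 bp in replicates 1 and 2.

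By score, the order was another one. The score is the authors' single value per region, and its meaning is not stated in the sources used here, so it served for description and for ranks inside 1 list. The median score on U was 1.06 in replicate 1 and 1.07 in replicate 2, against 1.01 and 0.974 on the Het sequences. Chromosome 4 had median scores of 0.628 and 0.698, and the euchromatic arms 0.568 and 0.677. U exceeded the Het sequences by 0.047 and 0.0913 and the arms by 0.49 and 0.39. The small excess over the Het sequences did not hold for each of them. The median of 2LHet was above that of U in both replicates, at 1.11 and 1.10, and that of 3LHet was above it in replicate 1, at 1.14, and below it in replicate 2, at 0.996. On 3RHet the medians were 0.861 and 0.888, below those of U in both. So a typical region of U scored about as high as one of the Het sequences, although U had fewer and narrower regions per length.

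The upper end of the score range was where U stood farthest from other sequence. In replicate 1, 47 of 591 U regions (7.95%) scored over 2, against 1.66% of all regions of that list. Replicate 2 had 55 of 452 (12.2%), against 1.6% of its list. Put the other way round, U held 46.5% of all regions over that score in replicate 1 and 54.5% in replicate 2, while it held 9.69% and 7.18% of the regions of any score. On the Het sequences 3.92% and 3.25% of regions scored over 2, and on the euchromatic arms 0.358% and 0.312%. U supplied 47 of the 100 highest scores of replicate 1 and 55 of the 101 highest of replicate 2, where scores tied at rank 100 were all kept. Of the U regions over 2, 15 of 47 in replicate 1 and 12 of 55 in replicate 2 overlapped no region of the other replicate. Over the whole lists it was 26 of 101 and 16 of 101. In the combined list, 83 of 938 U regions (8.85%) scored over 2, against 1.29% of the whole list, and U supplied 69 of its 104 highest scores.

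**Figure D1:**
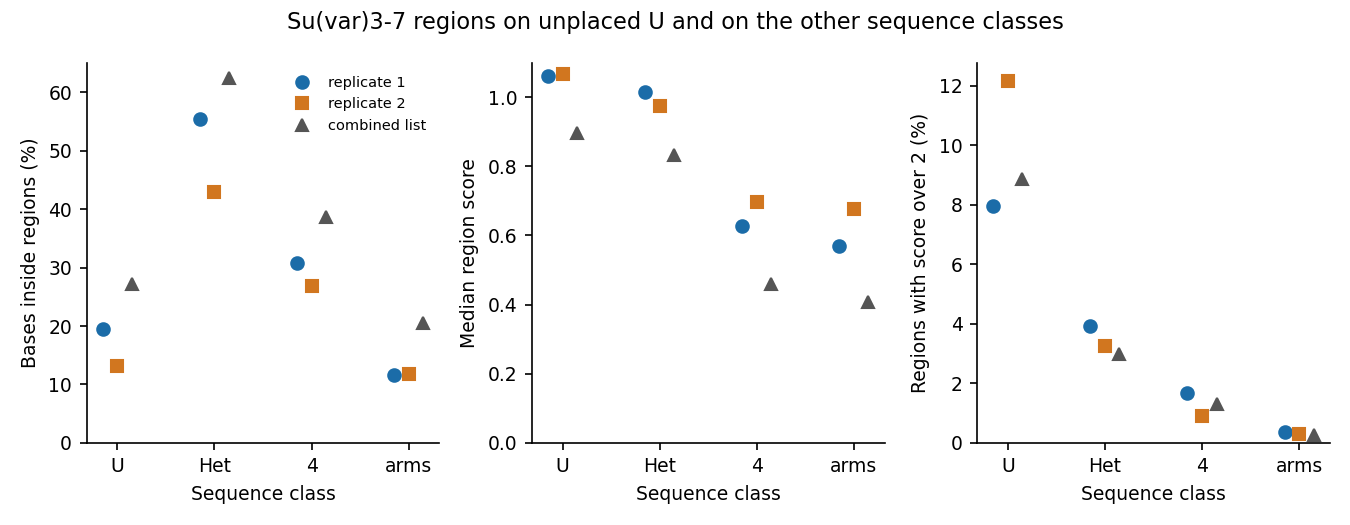
Percent of bases inside enriched regions, median region score and percent of regions with a score over 2 (y axes) on U, the Het sequences, chromosome 4 and the euchromatic arms (x axis), 1 point per list. U lies low in coverage, at 19.5% and 13.2% in the replicates, but highest of the 4 classes in the percent of regions over a score of 2, at 7.95% and 12.2%.

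Enrichment was uneven along U, in coverage and in score. Coverage was highest in the second 1 Mb bin, from 1 to 2 Mb, at 42.2% in replicate 1 and 31.7% in replicate 2, and the first bin followed with 33.4% and 18.9%. The lowest bin that measures a full 1 Mb lay from 4 to 5 Mb, with 8.47% and 6.3%. The bin from 9 to 10 Mb had 11.4% and 6.93%. The replicates ranked the first 2 bins and the bin from 4 to 5 Mb alike, with replicate 1 above replicate 2 in each of the 10 full bins.

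Scores were higher late on U. In the order of the 10 full bins, the median score of replicate 1 was 0.773, 1.08, 0.938, 1.00, 1.12, 1.23, 1.14, 1.24, 1.25 and 1.42. Replicate 2 had 0.772, 0.977, 0.974, 1.01, 1.05, 1.14, 1.32, 1.25, 1.43 and 1.67 in the same bins. Score and coverage tended to be opposed across bins. In both replicates each bin before 4 Mb had higher coverage and a lower median score than each later full bin. The lowest coverage before 4 Mb was 19.1% in replicate 1, and the highest after it 17.6%. In replicate 2 these were 12.44% and 12.38%. The opposition did not hold for each bin. In replicate 1 the best-covered bin, the second, scored above the third and the fourth. The least covered, the fifth, lay in the middle of the range. In replicate 2 the second bin scored above the third and below the fourth. From 9 to 10 Mb, 14 of 52 regions of replicate 1 (26.9%) and 13 of 32 regions of replicate 2 (40.6%) scored over 2. In the first bin these were 2 of 100 (2%) and 5 of 73 (6.85%). Both replicates thus had their lowest median in the first bin and their highest, of the full bins, in the last. Across regions, position along U and score had a Spearman rho of 0.363 over the 591 regions of replicate 1, 0.419 over the 452 of replicate 2 and 0.386 over the 938 of the combined list. These coefficients describe neighbouring regions of the same libraries, which are not independent.

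**Figure D2:**
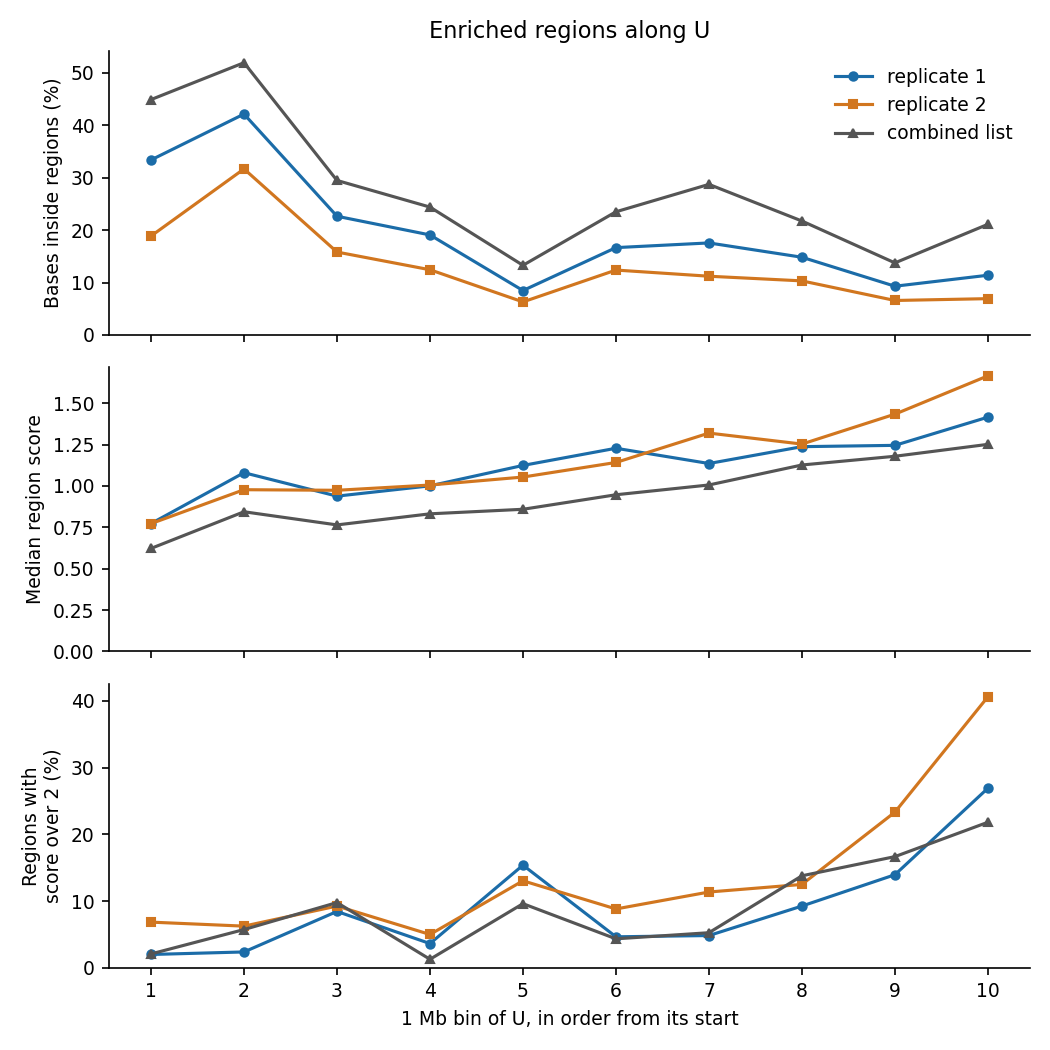
Percent of bases inside regions, median region score and percent of regions scoring over 2 (y axes) in the 10 full 1 Mb bins of U in order from its start (x axis), 1 line per list. Coverage peaks in the second bin, at 42.2% and 31.7% in the replicates, while the median score is highest in the last full bin, at 1.42 and 1.67.

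Regions lay close together in parts of U and far apart in others. The median gap between neighbouring combined-list regions was 3762 bp, 24.3% of the gaps were at most 1 kb, and the longest measured 132470 bp, from 687138 to 819607. Joining neighbours no more than 10 kb apart gave 227 clusters, of which 77 held a single region and 22 held 10 or more. Those 22 clusters contained 398 of the 938 regions (42.4%). Less of U was grouped this way in replicates 1 and 2, whose lists hold fewer regions. Their median gaps were 6430 and 8421 bp. The same rule gave them 218 and 210 clusters, of which 103 and 122 held a single region. Clusters of 10 or more numbered 10 and 4, with 22.7% and 12.4% of their U regions. The 5 combined-list clusters with most regions all lay in the first 2 Mb.

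The cluster with most regions spanned 10291 to 325293 on U (315003 bp). It held 60 combined-list regions over 65.5% of its span, with a median score of 0.68, and 43 regions of replicate 1 and 31 of replicate 2. The second spanned 1464506 to 1678929, with 44 regions over 49.1% of its span, and 23 and 16 regions in replicates 1 and 2. The one after that spanned 445871 to 638475, with 36 regions over 52.4% and 26 and 17 regions in the replicates. In the order given, 24, 11 and 14 of their combined-list regions overlapped a region in both replicates. All 3 had median scores below the 0.90 of all U regions in the combined list. The fourth by count, 857144 to 969665, was also below it, at 0.69. The fifth was above it: 1130955 to 1292486 held 19 regions over 82.4% of its span, with a median score of 1.15 in the combined list and 1.35 and 1.24 in replicates 1 and 2. A smaller neighbour, 1304959 to 1413352, chosen after its values were seen, had 10 regions over 87.8% of its span and a median of 1.32, so densely covered stretches early on U included ones with high as well as low scores. The sixth cluster by count lay late on U. It spanned 9491124 to 9595423, with 18 regions over 34.1% of its span, a median score of 1.41 and a highest score of 3.64.

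The widest regions were in the same early stretch. Of the 5 widest held by both replicates, the first covered 1348657 to 1384856 (36200 bp), with a combined-list score of 1.30, and the second 1314348 to 1346503 (32156 bp), with 1.34. Replicate 1 listed each of these as a single region, of 36000 bp and 32038 bp. Replicate 2 listed 6 separate regions within the first and 2 within the second. The others were 121014 to 142475 (21462 bp, score 0.90), 1161972 to 1180918 (18947 bp, score 1.40) and 5624589 to 5641873 (17285 bp, score 0.88). All but the last lay in the first 2 Mb of U and were split into more regions in replicate 2 than in replicate 1. The last held 3 regions of replicate 1 and 2 of replicate 2.

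The 10 highest-scoring regions held by both replicates were of another shape. In the combined list they measured 2470 to 3669 bp with a median of 2986 bp. The median was 2972 bp in replicate 1 (2394 to 3655 bp) and 2910 bp in replicate 2 (2361 to 3583 bp). All 10 lay beyond 6 Mb, and 6 lay beyond 9 Mb. Their scores were 3.11 to 3.98 in replicate 1 and 3.03 to 4.70 in replicate 2, and each ranked among the 11 highest U regions of replicate 1 and the 20 highest of replicate 2.

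First among them was 7843121 to 7846421, with a combined-list score of 4.13 and scores of 3.98 and 4.44 in replicates 1 and 2. Its limits hardly moved: replicate 1 placed it from 7843121 to 7846415 and replicate 2 from 7843131 to 7846272. The region 8776763 to 8780027 was as steady, with widths of 3254 and 3245 bp and scores of 3.43 and 3.28 in replicates 1 and 2. So was 6671160 to 6674828, with 3655 and 3583 bp and scores of 3.28 and 3.46. The score of 9552102 to 9555085 differed more, at 3.30 in replicate 1 and 4.70 in replicate 2, where it ranked 8 and 2 among U regions. Last of the 10 was 10035098 to 10037716, near the end of U, with scores of 3.11 and 3.21.

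Of these 10 regions, 3 were almost equal in width and evenly spaced, a feature chosen after its values were seen. They start at 9501289, 9526595 and 9552102, which puts 25306 bp and 25507 bp between successive starts. Their combined-list widths were 2988, 2980 and 2984 bp. In replicate 1 they measured 2803, 2987 and 2897 bp and in replicate 2 2495, 2886 and 2934 bp, so the near-equality of width was closer in the combined list than in either replicate. From 9 to 10 Mb, 8 regions had widths of 2900 to 3100 bp and scores over 2 (2.18 to 3.64), and both replicates held all 8. This width range was also chosen after the values were seen. On the whole of U, 26 regions had such a width and 9 of them scored over 2 (34.6%), against 8.85% of all U regions. Because the range was drawn around high scores already seen, these shares are a description and cannot test a link of width with score. From 9 to 10 Mb it was 8 of 12, and on the rest of U 1 of 14. The other starts among the 8 lay 111096 to 251643 bp apart, with no even spacing.

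Before 6 Mb the best combined-list regions of each bin held by both replicates scored lower and were wider than these 10. They peaked at 1.81 in the first 1 Mb bin (899241 to 908071, 8831 bp) and at 2.38 in the second (1575876 to 1580168, 4293 bp). The replicate lists differed there. The first overlapped 2 regions of replicate 2, 1 of them of 2009 bp with a score of 3.09. That is above 3.03, the lowest replicate 2 score of the 10, and narrower than all 10. The second overlapped 2 regions in each replicate, among them 1 of 1305 bp (score 2.79) in replicate 1 and 1 of 1892 bp (score 2.51) in replicate 2. From 2 to 3 Mb the top region was 2549821 to 2554908 (5088 bp, score 2.39) and from 3 to 4 Mb 3477665 to 3487919 (10255 bp, score 2.36). In the bin from 4 to 5 Mb it was 4021412 to 4031006 (9595 bp, score 2.87). The bin from 5 to 6 Mb was led by 5684053 to 5689907 (5855 bp, score 2.87). Replicates 1 and 2 gave the last of these scores of 2.99 and 2.75 and the one before it 2.95 and 2.78.

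An even size did not mark high-scoring regions of the combined list as a whole. Of its 94 highest-scoring U regions (the highest 10%), 39 (41.5%, 95% Wilson interval 32.1 to 51.6) measured 2000 to 4000 bp, against 343 of 938 U regions of any score (36.6%, 33.5 to 39.7). The 94th and the next region have the same score, 1.88. In the replicate lists the share was higher, with 37 of 59 (62.7%, 50.0 to 73.9) against 47.2% of all U regions in replicate 1, and 27 of 45 (60.0%, 45.5 to 73.0) against 44.9% in replicate 2. The combined list differed by a set of short regions. Of its 94 high-scoring regions, 37 were 1300 bp or shorter, a size that neither replicate list contains, since their shortest region measures 1301 bp and that of the combined list 1001 bp. These intervals reflect counting error alone and take each region as independent of its neighbours.

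High-scoring U regions of the combined list fell mainly into 2 sets by their support. Both replicates held 33 of the 94 (35.1%), with widths of 2200 to 10255 bp and a median of 3137 bp. Neither replicate held 52 of them (55.3%), and these had a median width of 1039 bp. The median scores of the 2 sets were close, at 2.75 and 2.50. Replicate 1 alone held 6 of the 94 and replicate 2 alone 3. A like split was present elsewhere. Of the 137 regions scoring over 2 in the whole list, both replicates held 47 and neither held 79. On the Het sequences it was 10 and 18 of 29. The second-highest score on U belonged to the set in neither replicate. The region 9290067 to 9292047 scored 4.04 in the combined list, and no region of either replicate overlapped it. The next scores of this set were 3.42 at 2817326 to 2818336 (1011 bp) and 3.42 at 7441899 to 7443969 (2071 bp).

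Over all 938 U regions of the combined list, 351 (37.4%, 95% Wilson interval 34.4 to 40.6) overlapped both replicates, against 38.6% of the whole list, and 349 (37.2%, 34.2 to 40.3) overlapped neither, against 38.7% of the whole list. U was thus near the average of the list, most of whose regions lie on the euchromatic arms, but far from the Het sequences, where 62.1% (59.0 to 65.1) overlapped both replicates and 17.4% (15.2 to 19.9) neither. On the arms the shares were 35.8% and 41.6%. Another 206 U regions overlapped replicate 1 only and 32 replicate 2 only. By score the sets lay close together on U, where the median was 1.00 for regions in both replicates and 0.93 for those in neither. On the Het sequences these medians were 0.95 and 0.74, and on the euchromatic arms 0.56 and 0.37. Of the U regions in neither replicate, 46 of 349 (13.2%) scored over 2, compared with 28 of 351 (7.98%) of those in both. The direction was the same in the whole list, at 1.92% and 1.15%, and on the Het sequences, at 10.6% and 1.65%. By width the sets on U stood well apart, with medians of 3709 bp in both replicates and 1251 bp in neither, and 107 of the 349 measured 1001 to 1100 bp. The whole list had similar median widths, of 3770.5 and 1316 bp.

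**Figure D3:**
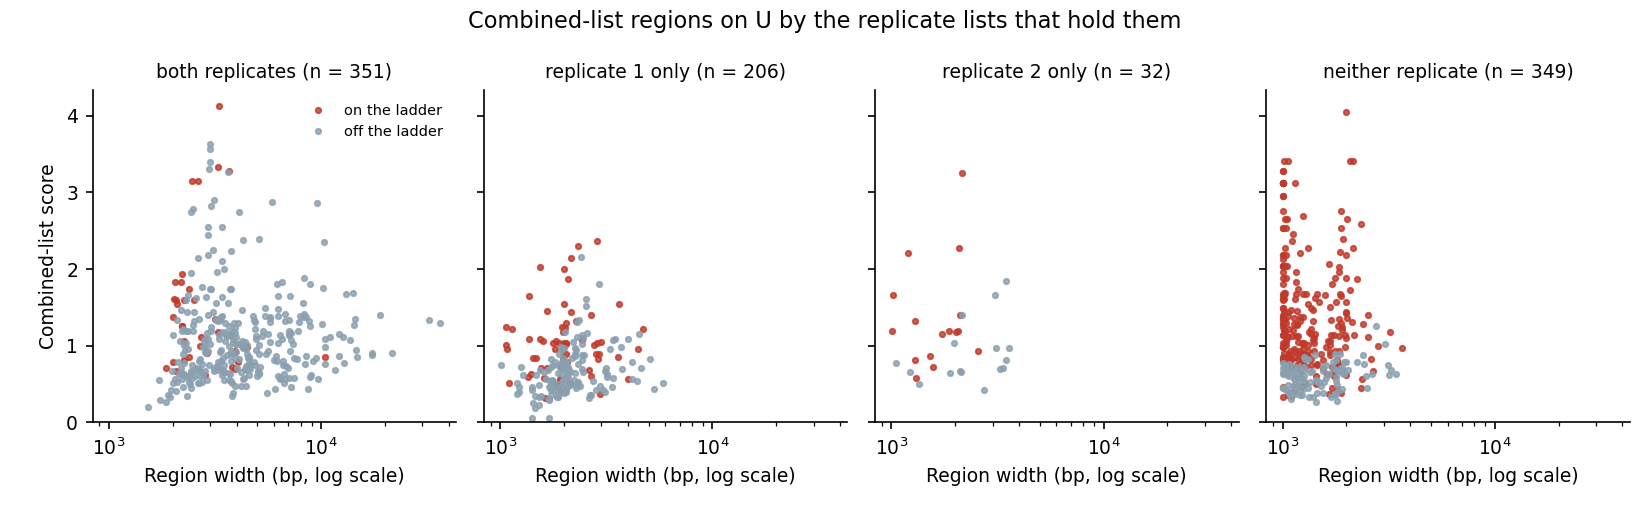
Combined-list score (y axis) against region width in bp (x axis, log scale) for the 938 U regions, 1 panel for each kind of support by the replicate lists. Red points have a score on the ladder of whole-number ratios. Regions in both replicates are 1521 bp or wider, whereas those in neither stack up near 1001 bp and reach a score of 4.04.

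Scores on U also repeated exactly, as did those elsewhere. Among the 938 combined-list scores, 3.42 occurred in 4 regions and 3.13 in 6, with no difference in 9 decimals. In the combined list 33.4% of U regions shared their score with another region of the list, against 31.4% on the arms and 19.1% on the Het sequences. In replicates 1 and 2 it was 24.4% and 35.0% on U, 28.6% and 38.3% on the arms, and 17.3% and 26.2% on the Het sequences. The spacing of such values followed a rule: after a constant of -0.043 was taken off, many scores equalled the base-2 logarithm of a ratio of 2 whole numbers, within 1e-08. The scores 2.76, 2.96, 3.13, 3.28 and 3.42 corresponded to 7, 8, 9, 10 and 11 to 1, and the top scores 4.04 and 4.13 to 17 and 18 to 1. The whole numbers are the smallest that reach each value and need not be read counts, and the constant was set by the value that put most regions of the list on this ladder. In replicates 1 and 2 the constants set by the same rule were 0.677 and 0.588. Scores of different lists therefore need not share a zero point. Values spaced in this way are those of a base-2 log scale with few possible steps.

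Scores on this ladder, with whole numbers up to 80, were more frequent on U. In the combined list 365 of 938 U regions lay on it (38.9%, 95% Wilson interval 35.8 to 42.1), against 13.8% of the whole list, 17.4% (15.2 to 19.9) of the Het sequences and 10.7% (10.0 to 11.4) of the euchromatic arms. In replicate 1 it was 42.6% of U regions, against 19.7% of that list, and in replicate 2 37.4%, against 21.1%. The excess over the arms was present in each list at each width range up to 4000 bp. Among regions of 1301 to 2000 bp, 69.6% of U and 22.4% of arm regions were on the ladder in replicate 1, and 59.2% and 28.4% in replicate 2. The Het sequences were nearer to U at this width, with 54.9% and 38.7% in replicates 1 and 2. Above 4000 bp the values were 9.24% on U and 5.79% on the arms in replicate 1, and 4% and 6.64% in replicate 2, so the sign differed between replicates. Among the highest 10% of U scores, all 12 regions of 1301 to 2000 bp in replicate 1 and all 13 in replicate 2 were on the ladder. At 2001 to 4000 bp it was 18 of 37 and 13 of 27, and above 4000 bp 0 of 10 and 0 of 5. Ladder shares over all widths are not matched for width. In the combined list 45.4% of Het regions and 17.0% of U regions exceeded 4000 bp.

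The ladder separated the 2 sets of combined-list regions. It held 243 of 349 U regions found in neither replicate (69.6%) and 39 of 351 found in both (11.1%). The same split was present elsewhere, at 54.7% and 5.45% on the Het sequences and 22.2% and 5.20% over the whole list. All 46 of the regions in neither replicate with scores over 2 were on it. With the constant of -0.043, 23 U regions lay on the ladder at a ratio of 7 or higher. Of these, neither replicate held 17, replicate 2 alone held 1 and both held 5. Those 5 were all among the 10 highest-scoring regions described above. On the ladder lay 66.4% of combined-list regions from 9 to 10 Mb, against 25.7% in the first bin. Late on U, both the ladder share and the median score were thus higher, and the part of the one in the other was not tested.

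**Figure D4:**
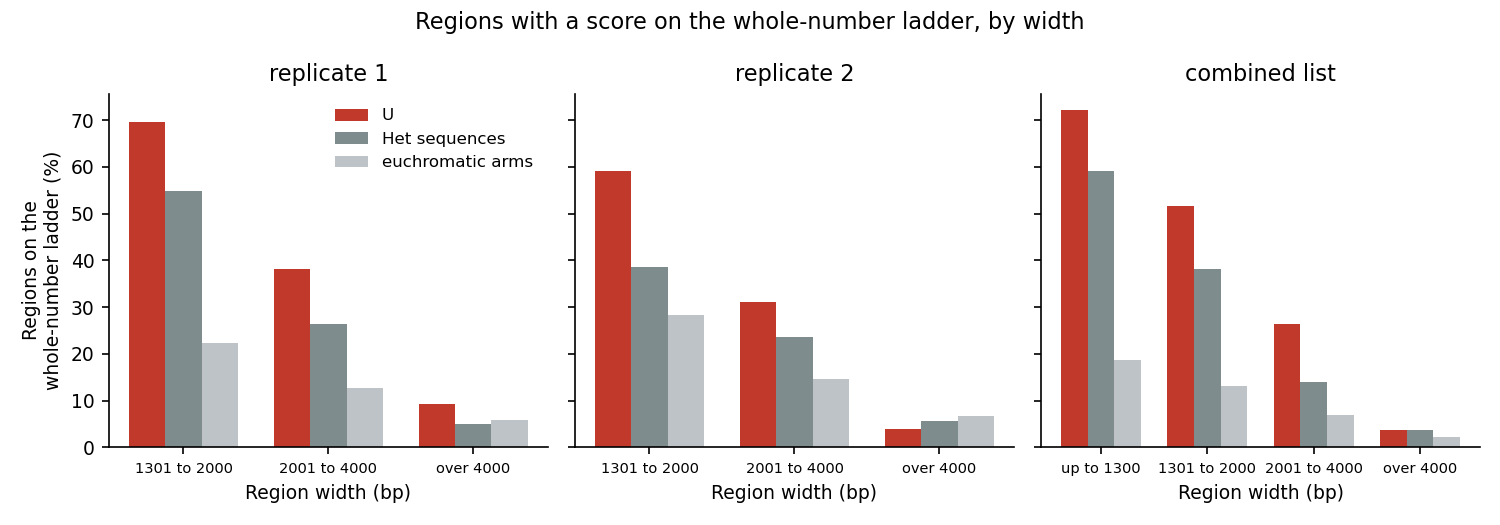
Percent of regions with a score on the whole-number ladder (y axis, bars from 0) by region width in bp (x axis) on U, the Het sequences and the euchromatic arms, 1 panel per list. Bars fall with width in each list, and U stands above the arms at each width up to 4000 bp, for example 69.6% against 22.4% at 1301 to 2000 bp in replicate 1.

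The replicates differed on U mainly by what replicate 1 held in addition. Of its 591 U regions, 367 overlapped a region of replicate 2 (62.1%, 95% Wilson interval 58.1 to 65.9), below the 75.8% of its whole list. Of the 452 U regions of replicate 2, 413 overlapped replicate 1 (91.4%, 88.4 to 93.6), above the 79.5% of its list. The Het sequences had higher shares than U in both, at 75.2% in replicate 1 and 98.4% in replicate 2. On the arms the shares were 77.6% and 74.5%. The 224 U regions of replicate 1 with no partner had a median width of 1837 bp and a median score of 0.976, against 3191 bp and 1.14 for those with one. The 39 regions of replicate 2 with no partner were short as well, at 1772 bp, but scored higher, with a median of 1.61 against 1.03, and 12 of them exceeded 2.

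Some of the highest scores of a replicate had no partner. In replicate 1 these were led by 9950662 to 9952222 (1561 bp, score 3.55), which ranked 4 among its U regions. The next were 9296936 to 9298253 (1318 bp, 3.00) and 2157198 to 2159226 (2029 bp, 2.85). In replicate 2 the leading ones were 2173483 to 2175504 (2022 bp, score 4.21), also at rank 4, 3760939 to 3762582 (1644 bp, 3.70) and 7704837 to 7706151 (1315 bp, 3.46). Each of the 6 overlapped a combined-list region with a lower score, for instance 1.08 for the first of replicate 1 and 3.26 for the first of replicate 2. These scores come from different lists, which need not share a zero point. All 6 were narrower than the 10 regions held by both replicates with the highest scores.

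Where both replicates listed a region, their scores ranked it similarly, though single regions could differ. In 326 U regions matched 1 to 1 between the replicates, scores had a Spearman rho of 0.875 and a Pearson r of 0.892, a description across neighbouring regions of the same 2 libraries. Replicate 2 minus replicate 1 had a median of -0.06, with 5th and 95th percentiles of -0.39 and 0.52. These differences include any difference in zero point between the 2 lists. The 3 largest differences were all higher in replicate 2, with scores of 2.83, 1.79 and 2.25 in replicate 1 and 4.76, 3.70 and 3.91 in replicate 2. Starts differed by a median of 156 bp and ends by 166 bp. Replicate 1 had the wider region in 264 of the 326 pairs (81.0%), with median widths of 2866 bp in replicate 1 and 2298 bp in replicate 2.

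**Figure D5:**
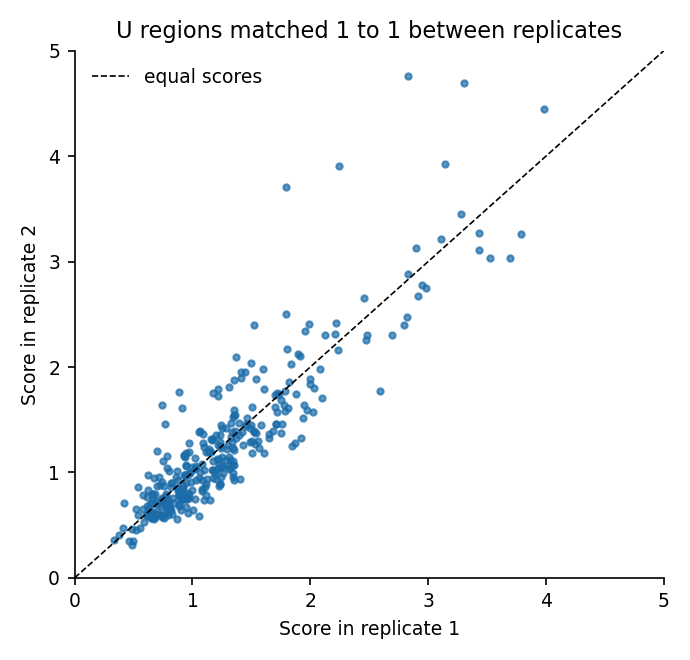
Score in replicate 2 (y axis) against score in replicate 1 (x axis) for the 326 U regions matched 1 to 1 between the replicates, 1 point per region, with a dashed line at equal scores. Points follow the line, with a rho of 0.875, and replicate 1 and replicate 2 scores reach 3.98 and 4.76.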

How the data were processed

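The authors deposited enriched-region lists of Su(var)3-7 ChIP-seq from 2 embryo libraries and 1 combined list, with 1 score per region. The score's scale, the region caller, its thresholds, the treatment of reads matching repeats and the making of the combined list are not stated in the sources at hand. Any of them could alter the number of regions on U. The submitters' processing notes name Bowtie 0.12.7 (a read aligner), and coordinates are of FlyBase release 5, per the file headers. Read depth is unknown. The only gene table supplied is of release 6 and was not used, and regions are named by position without sequence.

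Overlap required 1 bp. Clusters joined neighbours at most 10 kb apart, and bins of 1 Mb took regions by their start. A score ladder was sought as log2 of ratios of whole numbers up to 80, within 1e-08. Shares carry 95% Wilson intervals. Overlap, coverage, cluster and ladder functions were tested on simulated data. Calculations used Python 3.11.15, numpy 2.4.6, pandas 2.3.3 and scipy 1.17.1. Named regions were the 10 highest-scoring and 5 widest combined-list U regions that overlap both replicates, the top one of each bin, the 3 top-scoring regions of each replicate without a partner, the 3 top-scoring in neither replicate and the 3 clusters with most regions. The regions and rules were chosen with earlier results of these data known. The ladder and the regions of 2900 to 3100 bp were chosen after the data were seen.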

Additional observations from a re-analysis of the deposited data

How the results depend on the processing

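Of 42 values under alternative settings for 14 results, 22 stayed within the spread of the replicates, the interval or 1.5 times the count, and 20 moved. A single replicate of 2 always lies within their SD of the mean. Values with either replicate left out therefore counted as unmoved by construction and cannot show stability. No paired analysis was possible because the inputs have no values and no groups of samples are compared; U and other sequence are set side by side within each replicate in the report. Leaving out either replicate gave a coverage of U of 13.2% to 19.5%, a ratio to the arms of 1.12 to 1.69, and median score differences of 0.39 to 0.49 from the arms and 0.047 to 0.0913 from the Het sequences. Coverage of U was 27.2% in the combined list, and its ratio to the arms 2.08 in the higher-scoring 50% of each list. With means for medians, U exceeded the arms by 0.53 and the Het sequences by 0.17. With 50% reciprocal overlap, partners were found for 52.6% of replicate 1 and 68.8% of replicate 2 regions, and 28.9% of combined regions were in both, since a stricter criterion matches fewer. In the higher-scoring 50% of U regions the partner shares were 67.9% and 85.8%. Gaps of 5 kb and 20 kb gave 393 and 103 clusters, as the definition implies. The densest bin held 19.0% of covered bases, against 15.4% of regions. Of the high-scoring regions, 20.2% measured 2500 to 3500 bp, and 62.7% and 60.0% of those in replicates 1 and 2 measured 2000 to 4000 bp. U supplied 34 of the 50 and 107 of the 200 highest scores, ties kept. The ladder, added after the data were seen, held 27.0% of U regions with whole numbers to 40, 50.6% with whole numbers to 120 and 42.6% in replicate 1. With whole numbers to 40 its constant was 0.957, not -0.043, so the ratios assigned to scores differ as well. Unknown depth limits every value, and absence from a list does not show absence of binding.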

Other observations

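Combined-list scores were rarely above both replicates. In 290 U regions with exactly 1 partner in each replicate, the combined score lay between the replicate scores in 146, below both in 142 and above both in 2. The lists need not share a zero point, so this order does not measure a difference in enrichment. Of the U regions of replicates 1 and 2, 9 of 591 and 4 of 452 had no counterpart in the combined list.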
